A study of Mus musculus with 7 samples.

Results

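The 44 genes described here are targets and partners of the transcription factor ATF4 in the amino acid response, chosen by name and kept apart by role: 12 regulators and stress effectors, 9 amino acid transporters, 9 enzymes of serine and one-carbon metabolism, 5 other enzymes of amino acid synthesis and 9 cytosolic tRNA synthetases. Probes were assigned to them through the RefSeq accession that the scanner files give for each probe. A probe was assigned to 43 of the 44 members, and these 43 were all tested among 25347 genes. Pycr1, a proline synthesis enzyme, had no assigned probe and its level was not analysed here.

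Group 2 innate lymphoid cells (ILC2s) secrete type 2 cytokines and carry no rearranged antigen receptor. They were compared between wild-type (Gfi1+/+) mice and mice homozygous for a Gfi1 allele carrying an inserted GFP cassette (Gfi1GFP/GFP), which abolishes the function of this transcriptional repressor and reports its promoter activity. All mice of both genotypes received IL-25 daily for 4 days, and on day 5 cells that were Lin-, Sca-1+, ICOS+, CD127+ and c-Kit+ were sorted from mesenteric lymph nodes. Each wild-type sample was a pool of 3 mice and each sample labelled knockout a pool of 6, and every sample was cultured for 6 days with IL-2 (50 ng/ml), IL-7 (10 ng/ml) and IL-25 (50 ng/ml) before RNA was taken. The labels give no strain or age, the allele is not tied to a cell type by any driver they name, and all values come from cultured cells. The 4 wild-type and 3 knockout samples were each hybridised in the red channel of a 2-colour array against Universal Mouse Reference RNA in the green channel, in 1 dye orientation. Values are therefore log2 ratios of sample over reference, and differences are those of the arrays labelled knockout minus wild type.

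ATF4 is a basic leucine zipper factor whose translation increases when the kinases GCN2, PERK, PKR or HRI phosphorylate the initiation factor eIF2, as happens when amino acids run short or unfolded protein collects in the endoplasmic reticulum. With C/EBP family partners it binds C/EBP-ATF response elements and activates genes that import, synthesise and charge amino acids, together with feedback inhibitors such as Trib3 and Ppp1r15a. Because much of its control is translational, Atf4 mRNA is not a measure of ATF4 protein, which was not measured here. In activated lymphocytes the same programme is known for supplying amino acids and folate units for growth.

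On the arrays 67.4% to 80.9% of probes were well above background in the sample channel, and Pearson's r of the log ratios over genes was 0.979 to 0.989 within wild type, 0.969 to 0.980 within the group labelled knockout and 0.942 to 0.969 between groups. The Gfi1 probe was 4.77-fold higher on the arrays labelled knockout (limma adjusted p = 1.6e-05). The sources used here do not say whether it lies in the part of the gene that the inserted cassette leaves in place, so it does not check the labels. All 12 ILC2 markers were well above background on all 7 arrays. Their summed sample signal was 744696 to 1029610 on wild-type arrays and 494672 to 640660 on arrays labelled knockout, with Gata3, Ly6a and Il1rl1 called lower and Il17rb higher. For 6 markers of group 3 innate lymphoid cells the sum was 806 to 999 against 12004 to 20423, with Il17a and Ccr6 called higher and Ncr1 above background on no array. The summed signals of 9 T cell, 6 B cell, 7 myeloid, 6 natural killer and 8 mast cell markers overlapped between the groups, with Lck called higher among the T cell markers and Cpa3 and Hdc lower among the mast cell markers, and the mast cell markers Fcer1a and Ms4a2 were above background on no array. The sums did not overlap for 7 stromal or epithelial markers, at 4479 to 4843 against 5170 to 5340 with Krt18 called higher, or for 3 erythroid markers, at 743 to 1133 against 539 to 591 with Hba-a1 called lower and Hbb-bs above background on no array. The part of these markers in the results on ATF4 genes was not tested. Arrays also differed in Xist and the Y-linked gene Ddx3y: wild-type arrays 1 and 2 and labelled knockout arrays 1 and 2 had Xist log2 ratios of 0.04 to 0.13, and the other 3 had 2.79 to 3.26. The arrays lay on 3 slides. Slide 1 held labelled knockout array 1 and wild-type array 4, slide 2 held wild-type array 1 and labelled knockout arrays 2 and 3, and slide 3 held wild-type arrays 2 and 3.

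Of the 43 tested members, 14 were called lower on the arrays labelled knockout, 1 was called higher and 28 did not pass the test (limma, Benjamini-Hochberg adjusted p under 0.05). Over all tested genes, 4.24% were called lower and 3.29% higher, or 7.53% in either direction. The members were chosen with earlier results of these data known, and the part of that choice in these counts was not tested. The median difference of the members was -0.29 on the log2 scale, against -0.01 over all tested genes, and 35 of the 43 lay below 0, against 54% of all tested genes. In 17 members every array labelled knockout lay below every wild-type array, against 10.2% of all tested genes, and in 1 member (Shmt1) every one lay above, against 8.08%. By role, 7 of 12 regulators, 3 of 9 transporters, 2 of 4 tested enzymes of other amino acid synthesis, 1 of 9 synthetases and 1 of 9 serine and one-carbon enzymes fell, and the single increase, Shmt1, was in the last group. In bulk RNA, fewer cells that express a gene and less RNA per cell cannot be told apart. With slide fitted as a block, 3 members (Trib3, Slc38a5 and Slc3a2) were called lower, against 0.967% of all tested genes, and no member was called higher, against 0.919%. Wild-type array 4 and labelled knockout array 3 were treated as in doubt for background or scanner quality. The values behind that doubt are not given here, and their shares of probes above background, 80.4% and 70.6%, lay within the range of the other arrays. Without both, 12 members were called lower and none higher, and the calls of Atf5, Asns and Shmt1 were lost. The slide fit has fewer residual degrees of freedom and compares the genotypes within slides 1 and 2 only.

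**Figure D1:**
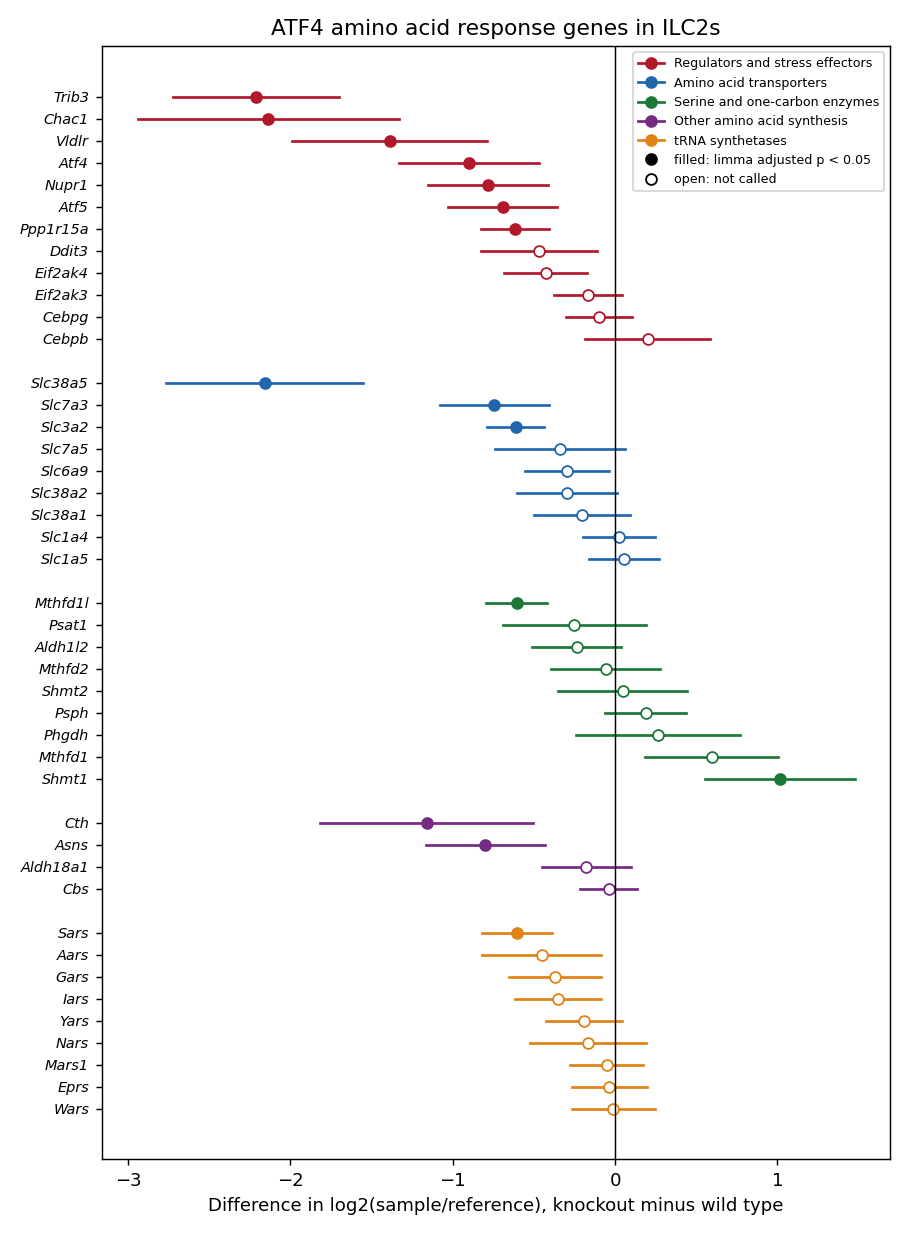
Difference in log2(sample/reference), arrays labelled knockout minus wild type, for the 43 tested members, with 95% limma confidence intervals and colours by role. Filled points passed an adjusted p of 0.05: 14 lie to the left of 0, led by Trib3, Slc38a5 and Chac1, and Shmt1 lies to the right.

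The promoters of 36 members, in 42 windows from 250 bases before to 50 bases after a gene's start, were searched in RefSeq sequence (GRCm38.p6) for the element through which ATF4 acts. The core TGATGNAA, read on both strands, stood in 11 of 42 member windows (26.2%) and in 1304 of 32851 windows over all genes (3.97%). By gene, 5 of 12 members that fell and had a window held it (Trib3, Chac1, Vldlr, Nupr1 and Asns), as did 5 of 22 members that did not pass the test (among them Gars, Iars, Yars and Slc1a4), and Pycr1. Stretches of 30 bases around the core are shown for the members that fell and for the synthetases Gars, Iars and Yars, since these carry the same letters and did not pass the test. They run 5' to 3' on the strand of the gene, with the 8-base core in capitals. Where the core lies on the other strand it reads TTGCATCA, TTACATCA or TTTCATCA.

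Trib3 (chr2:152344028-152344057, minus strand): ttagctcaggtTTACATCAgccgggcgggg

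Chac1 (chr2:119351038-119351067, plus strand): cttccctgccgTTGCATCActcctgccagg

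Vldlr (chr19:27216809-27216838, plus strand): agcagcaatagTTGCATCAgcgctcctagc

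Nupr1 (chr7:126625562-126625591, minus strand): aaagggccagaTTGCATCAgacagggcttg

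Asns (chr6:7693214-7693243, minus strand): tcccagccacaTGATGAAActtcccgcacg

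Gars (chr6:55037960-55037989, plus strand): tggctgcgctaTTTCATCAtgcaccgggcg

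Iars (chr13:49682126-49682155, plus strand): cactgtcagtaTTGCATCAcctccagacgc

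Yars (chr4:129189895-129189924, plus strand): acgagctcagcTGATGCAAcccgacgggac

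Among these cores TGATGCAA was the commonest, with 8 of 12 matches in all member windows, followed by TGATGAAA with 3 and TGATGTAA with 1, the form in Trib3. Counted from the gene's start, the match began at position -23 in Asns, at -193 in Chac1 and at 15, past the start, in Trib3. The cAMP response element TGACGTCA stood in 1 member window (2.38%, against 1.79% of all windows), that of Ppp1r15a. The E-box CACGTG stood in 6 (14.3%, against 7.15%), among them those of Nupr1, Slc38a5, Aldh18a1, Cbs and Iars. Both are palindromes, and no match of 1 motif overlapped a match of another. Slc38a5, the transporter with the largest decrease, had no match to the C/EBP-ATF core in its window. The 250 bases before its start are shown with the E-box in capitals, beside those of Chac1 with the C/EBP-ATF core in capitals, since these 2 members fell by a like amount and hold different matches.

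Slc38a5 (chrX:8271131-8271380, plus strand): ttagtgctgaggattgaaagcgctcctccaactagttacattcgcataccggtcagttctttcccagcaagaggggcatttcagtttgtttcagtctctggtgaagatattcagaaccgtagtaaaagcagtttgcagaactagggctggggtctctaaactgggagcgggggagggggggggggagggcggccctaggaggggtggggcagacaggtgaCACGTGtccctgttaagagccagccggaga

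Chac1 (chr2:119350992-119351241, plus strand): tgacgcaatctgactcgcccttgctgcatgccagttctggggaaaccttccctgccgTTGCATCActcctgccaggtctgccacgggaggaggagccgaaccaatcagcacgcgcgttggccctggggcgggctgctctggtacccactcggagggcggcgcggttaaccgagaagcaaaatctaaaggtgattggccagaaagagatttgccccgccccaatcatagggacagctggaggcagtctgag

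A match describes the letters of these windows and not binding, and elements outside them were not searched.

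Among the regulators and stress effectors, Trib3 and Chac1 fell most. Trib3, a pseudokinase that is induced by ATF4 and restrains it, was 4.63-fold lower on the arrays labelled knockout, and Chac1, which degrades glutathione, was 4.4-fold lower. Vldlr (a lipoprotein receptor), Atf4 itself, Nupr1 (a stress-induced chromatin protein), Atf5 (a related leucine zipper factor) and Ppp1r15a (the subunit that directs phosphatase to eIF2) fell as well. Ddit3, Eif2ak4, Eif2ak3, Cebpg and Cebpb did not pass the test. Values are given in the order of wild-type arrays 1 to 4 and then labelled knockout arrays 1 to 3, with the standard error (SE) of the fitted difference over 4 and 3 samples.

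Trib3 had log2 ratios of -2.68, -2.07, -2.93 and -3.03 on the wild-type arrays and -4.61, -4.84 and -5.22 on those labelled knockout. Every array labelled knockout lay well below the lowest wild-type array, and the difference of -2.21 (SE 0.23, limma adjusted p = 0.000574) was the 11th lowest of all tested genes. It was -1.58 within slide 1 and -2.35 within slide 2. For Chac1 the wild-type values were -1.53, -0.62, -2.15 and -2.22 and the others -3.46, -3.62 and -4.21. Wild-type array 2 was the highest and the groups did not overlap, with a difference of -2.14 (SE 0.36, limma adjusted p = 0.00681). Both genes changed in the sample channel alone by like amounts, 4.45-fold for Trib3 and 4.3-fold for Chac1.

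Vldlr was near the limit of detection, with log2 ratios of -5.47, -4.39, -4.96 and -5.30 against -6.17, -6.17 and -6.91. The groups did not overlap, but only 2 of the 3 arrays labelled knockout had it well above background. The fitted difference was -1.39 (SE 0.27, limma adjusted p = 0.0129), and its second probe was above background on no array. With the scanner's own log ratio the difference was -2.39.

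Atf4 itself was read by 2 probes. The brighter probe gave -1.20, -1.07, -1.46 and -1.32 against -1.76, -2.07 and -2.67, a difference of -0.90 (SE 0.19, limma adjusted p = 0.0211). Groups lay apart in the ratio, yet the sample channel of this probe differed by -0.27, with overlapping groups (limma adjusted p = 0.401), while its reference channel differed by 0.63, although the same reference RNA was used throughout. The other Atf4 probe gave 0.59, 0.82, 0.64 and 0.53 against 0.29, -0.29 and 0.22, again without overlap. Its difference of -0.57 (limma adjusted p over all probes = 0.0406) came with -0.54 in the sample channel and 0.03 in the reference channel.

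Nupr1 read -0.29, 0.02, -0.59 and -0.72 on the wild-type arrays and -1.25, -1.05 and -1.24 on those labelled knockout, a difference of -0.79 (SE 0.16, limma adjusted p = 0.0195). For Atf5 the ratios were -2.47, -2.13, -2.02 and -2.47 against -2.75, -2.93 and -3.22, a difference of -0.69 (SE 0.15, limma adjusted p = 0.0219). In both genes the wild-type arrays spread over a wider range than the gap to the other group. Ppp1r15a was tighter, at -2.09, -1.88, -1.89 and -2.01 against -2.54, -2.49 and -2.73, a difference of -0.62 (SE 0.09, limma adjusted p = 0.00419).

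Of the remaining regulators, Ddit3, which encodes the stress factor CHOP, had ratios of -1.38, -0.81, -1.02 and -1.09 against -1.73, -1.68 and -1.21. The third array labelled knockout fell inside the wild-type range, and the difference of -0.47 did not pass (95% interval -0.82 to -0.11, limma adjusted p = 0.129). Without that array it was -0.63 and passed (limma adjusted p = 0.0343). Eif2ak4, the gene of the amino acid sensing kinase GCN2, differed by -0.43 with groups apart and missed the threshold (limma adjusted p = 0.054), which it passed without labelled knockout array 2 (0.0287). Differences for Eif2ak3, which encodes PERK, and for the C/EBP partners Cebpg and Cebpb were -0.17, -0.10 and 0.20. With slide as a block the calls of Chac1, Vldlr, Atf4, Nupr1, Atf5 and Ppp1r15a were lost, with limma adjusted p of 0.128, 0.144, 0.191, 0.171, 0.211 and 0.0836. Each was below 0 within both slides that hold both genotypes, which follows from groups that do not overlap and adds no separate evidence. Leaving out single arrays also ended the calls of Atf4 (wild-type 1, 2 or 4 or labelled knockout 2, adjusted p up to 0.0662), Atf5 (wild-type 2 or 3 or labelled knockout 2 or 3, up to 0.0674) and Nupr1 (wild-type 1 or labelled knockout 1 or 3, up to 0.0532).

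**Figure D2:**
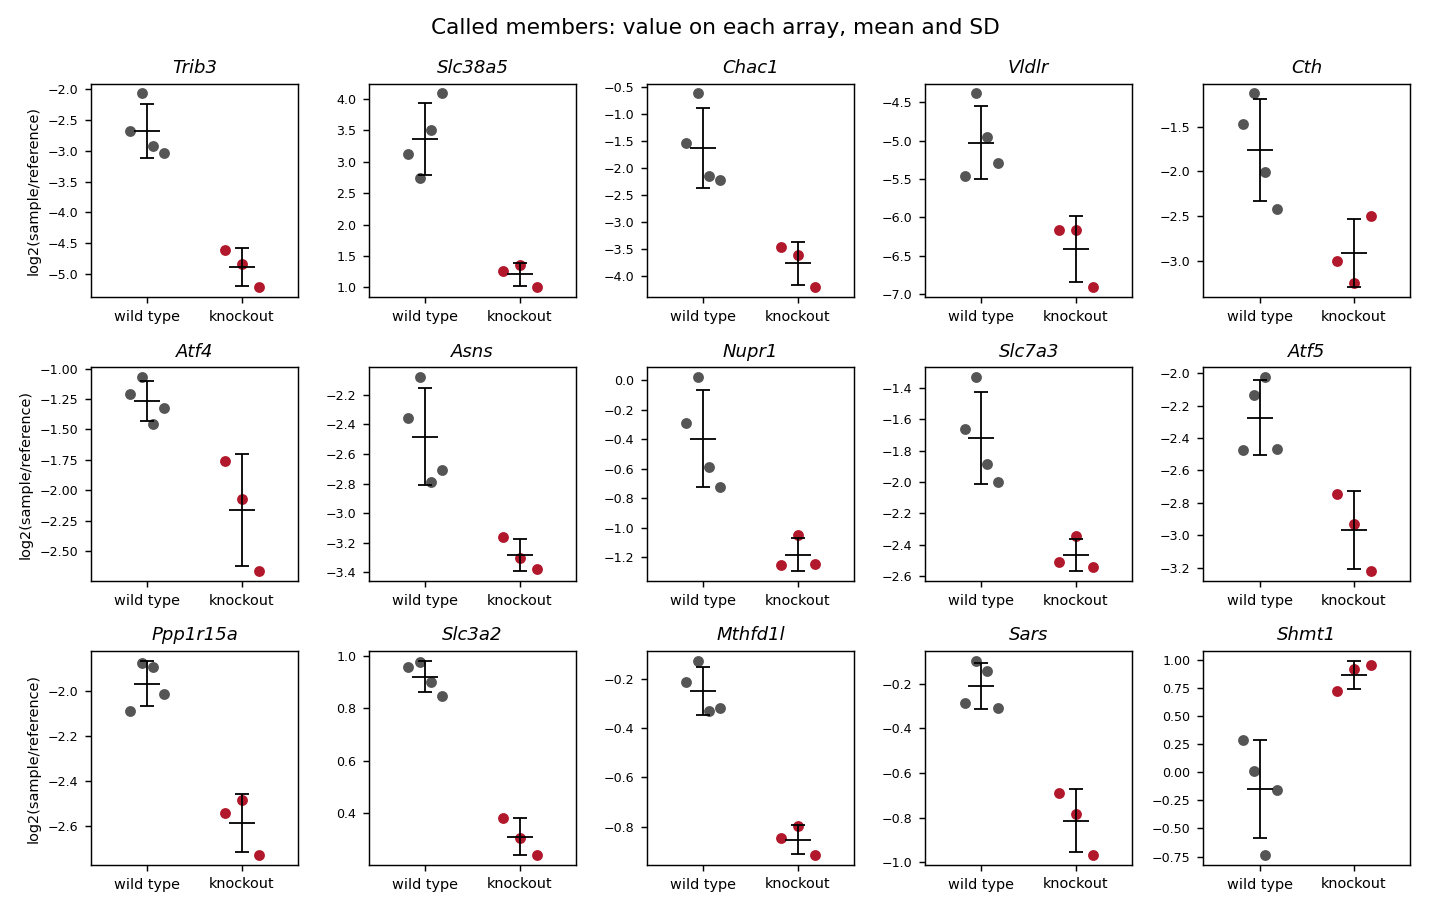
Log2(sample/reference) of each of the 15 called members on every array, with a panel per gene, wild-type arrays on the left and arrays labelled knockout on the right. In all 15 panels the groups do not overlap, and only Shmt1 is higher on the arrays labelled knockout.

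Among the transporters, Slc38a5, a sodium-coupled carrier of glutamine and other neutral amino acids, fell most, and Slc7a3, a carrier of cationic amino acids, and Slc3a2, the heavy chain that brings several SLC7 carriers to the membrane, fell with it. The other 6 did not pass the test. The log2 ratio of Slc38a5 was 3.12, 2.74, 3.51 and 4.09 on the wild-type arrays and 1.26, 1.36 and 1.0 on those labelled knockout. The groups were far apart, with a difference of -2.16 (SE 0.27, limma adjusted p = 0.00158), or 4.47-fold. The reference was well above background on 1 of 7 arrays for this probe, and in the sample channel alone the gene was 6.46-fold lower. Within slide 1 the difference was -2.83 and within slide 2 it was -1.94.

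Slc3a2 had the narrowest spread of the transporters, with 0.96, 0.98, 0.90 and 0.85 against 0.38, 0.30 and 0.24. That is a difference of -0.61 (SE 0.08, limma adjusted p = 0.0017), with no overlap, and it was -0.46 within slide 1 and -0.69 within slide 2. Slc7a3 gave -1.66, -1.33, -1.88 and -2.0 against -2.51, -2.34 and -2.54, a difference of -0.74 (SE 0.15, limma adjusted p = 0.0161) that was lost with slide as a block (0.17). Slc7a5, the light chain that forms the large neutral amino acid transporter with Slc3a2, differed by -0.34 on its brighter probe (limma adjusted p = 0.346) and by -0.05 on the other. Slc6a9, a glycine carrier, and Slc38a2, a neutral amino acid carrier, each differed by about -0.30 (limma adjusted p = 0.188 and 0.281). Slc38a1 differed by -0.20 on its brightest probe, and another of its probes had the opposite sign at 0.05. The neutral amino acid exchangers Slc1a4 and Slc1a5 differed by 0.02 and 0.06 (limma adjusted p = 0.937 and 0.83). In the sample channel alone Slc1a4 differed by 0.37, with 0.35 in the reference channel.

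The serine and one-carbon enzymes did not move together. Their median difference was 0.05, with a range from -0.61 to 1.01. Mthfd1l, the mitochondrial enzyme that releases formate, fell, and Shmt1, the cytosolic enzyme that moves a carbon unit from serine to folate, rose. Mthfd1l read -0.21, -0.13, -0.33 and -0.32 on the wild-type arrays and -0.85, -0.80 and -0.92 on those labelled knockout. Neither group spread far, and the difference was -0.61 (SE 0.08, limma adjusted p = 0.00258), with -0.42 on its second probe and an adjusted p of 0.0589 with slide as a block.

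Shmt1 gave 0.29, 0.01, -0.74 and -0.16 against 0.72, 0.91 and 0.96. Wild-type array 3 was the lowest and all arrays labelled knockout were higher, with a difference of 1.01 (SE 0.21, limma adjusted p = 0.0168). A second Shmt1 probe differed by 0.04 (limma adjusted p over all probes = 0.882), so the increase was seen by 1 of the gene's 2 probes, and with the mean over both probes the difference was 0.53 (limma adjusted p = 0.0404). It was no longer called when slide was a block (limma adjusted p = 0.192), with the scanner's own log ratio, and without wild-type array 4 or labelled knockout array 2 (up to 0.062). Mthfd1, the cytosolic trifunctional folate enzyme, differed by 0.60 without passing (limma adjusted p = 0.09), and passed without wild-type array 1 (0.72, limma adjusted p = 0.0431). The enzymes of the serine pathway itself did not pass: Phgdh, which opens it, differed by 0.27, Psat1, the next step, by -0.25, and Psph, the last, by 0.19. Mitochondrial Shmt2, Mthfd2 and Aldh1l2, which carry serine-derived carbon through folate in that compartment, differed by 0.05, -0.06 and -0.24.

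Among the other enzymes of amino acid synthesis, Asns, which makes asparagine, and Cth, which makes cysteine from cystathionine, fell. Asns had log2 ratios of -2.36, -2.08, -2.79 and -2.71 against -3.16, -3.31 and -3.38, with no overlap and a difference of -0.80 (SE 0.16, limma adjusted p = 0.0173), or 1.74-fold. For Cth the values were -1.47, -1.13, -2.0 and -2.43 against -3.0, -3.25 and -2.50. Wild-type array 4 lay close to labelled knockout array 3, and the difference was -1.16 (SE 0.29, limma adjusted p = 0.0434), with -1.09 on its second probe. Aldh18a1, which opens proline synthesis, and Cbs, the step before Cth, differed by -0.18 and -0.04 without passing. Neither call held with slide as a block (limma adjusted p = 0.21 and 0.26). That of Asns was lost also without labelled knockout array 2 (0.0614). That of Cth was lost without wild-type array 1, 2 or 3 or labelled knockout array 1 or 2 (up to 0.145).

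The 9 cytosolic tRNA synthetases, which load amino acids onto tRNA, all had differences below 0, from -0.60 to -0.01 with a median of -0.19, and 1 passed the test. Without labelled knockout array 1 the median was -0.36, the largest shift from leaving out a single array, and Wars was then above 0. Sars, for serine, read -0.29, -0.10, -0.14 and -0.31 against -0.69, -0.79 and -0.97. The groups were apart, with a difference of -0.60 (SE 0.10, limma adjusted p = 0.00542) that became 0.0989 with slide as a block. Aars (alanine) differed by -0.45 without passing (limma adjusted p = 0.154). Gars (glycine) and Iars (isoleucine), whose promoters hold the C/EBP-ATF core printed above, differed by -0.37 and -0.35, also without passing (limma adjusted p = 0.126 and 0.12). Yars (tyrosine) and Nars (asparagine) differed by -0.19 and -0.17. Mars1 (methionine), Eprs (glutamate and proline) and Wars (tryptophan) differed by -0.05, -0.04 and -0.01.

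**Figure D3:**
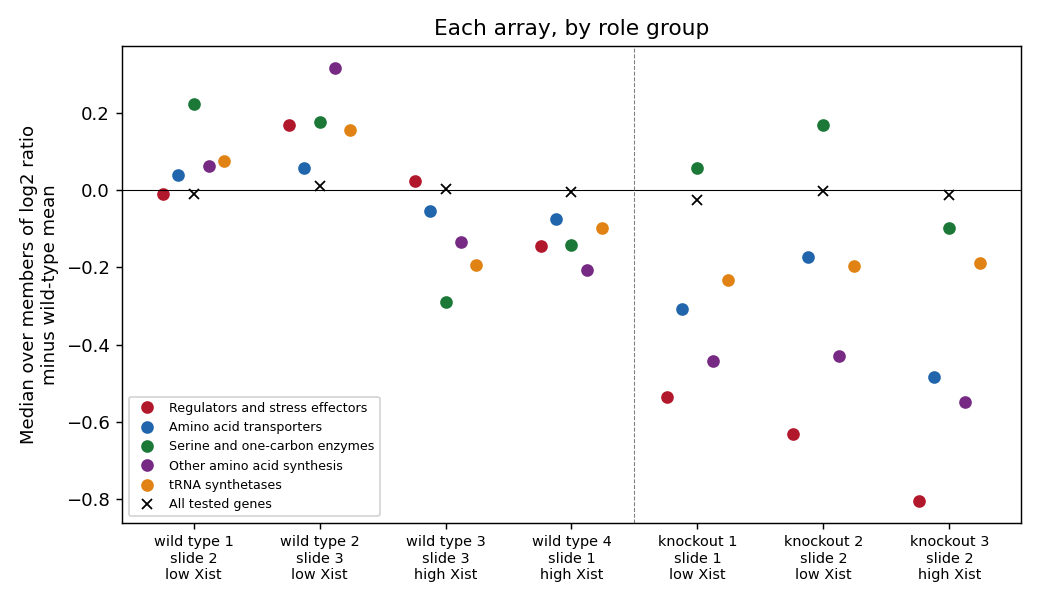
Median over the members of each role group of the log2 ratio minus the mean of the wild-type arrays, for each of the 7 arrays, with slide and Xist level under each array and crosses for all tested genes. Regulators lie lowest on all 3 arrays labelled knockout, and the serine and one-carbon enzymes vary as much among wild-type arrays as between the groups.

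The wild-type arrays differed among themselves in these genes. In 27 of 43 members (62.8%) wild-type arrays 1 and 2 both lay above arrays 3 and 4, against 22% of all tested genes, and this held for 8 of 9 serine and one-carbon enzymes and 7 of 9 synthetases. Arrays 1 and 2 are also those with low Xist and high Ddx3y. The groups did not overlap in any of the 14 members that fell. Each was therefore bound to be below 0 both among the 4 arrays with low Xist and among the 3 with high Xist, and only the sizes are informative. Trib3 differed by -2.35 and -2.24 in these sets, Slc38a5 by -1.62 and -2.81, and Cth by -1.83 and -0.28. With Xist minus Ddx3y as a covariate, 20 members were called lower, the 6 added being Eif2ak4, Slc6a9, Psat1, Aars, Gars and Iars. The part of pool composition in the values was not tested.

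**Figure D4:**
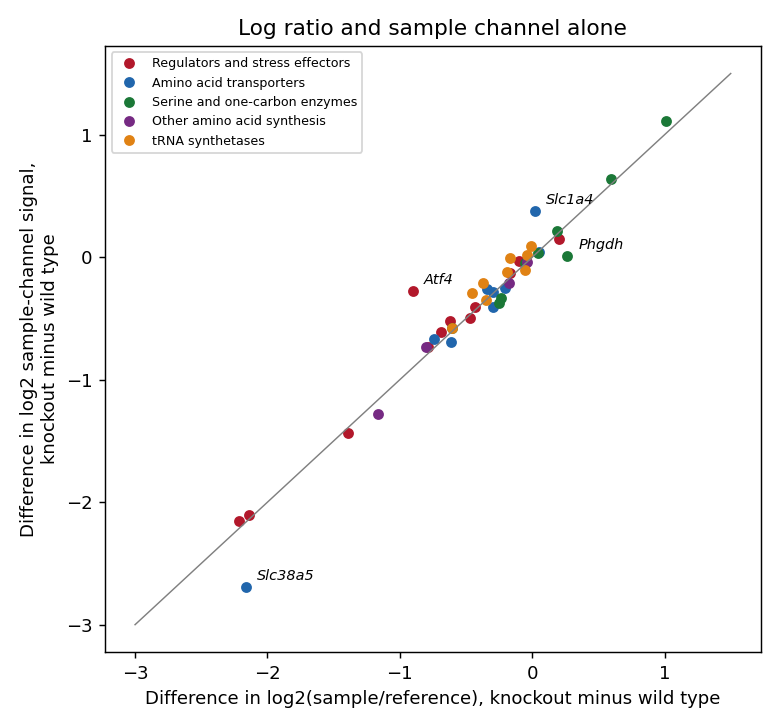
Difference of each tested member in the log2 ratio against its difference in the sample channel alone, arrays labelled knockout minus wild type on both axes. For 39 of the 43 members the values differ by at most 0.25, and Atf4, Slc38a5, Slc1a4 and Phgdh lie off the diagonal by more than that, the size of their difference in the reference channel.

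Other genes of the pathway are given by list. Their counts are to be read beside the 4.24% of all tested genes that were called lower and the 3.29% called higher. Of 26 tested further ATF4 targets, 4 were called lower and 1 higher, with a median of -0.11 and 18 below 0. In 10 of the 26 every array labelled knockout lay below every wild-type array, against 10.2% of all tested genes. In 1 every one lay above, against 8.08%. Jdp2, a leucine zipper partner of the AP-1 and ATF families, read 0.81, 0.68, 0.56 and 0.81 against -0.52, -0.54 and -0.83, a difference of -1.34 (SE 0.11, limma adjusted p = 0.000151). Eif4ebp1, a repressor of cap-dependent translation, Got1, an aspartate aminotransferase, and Cars, the cysteine synthetase, differed by -0.94, -0.82 and -0.47 (limma adjusted p = 0.0116, 0.008 and 0.0161). Gpt2, an alanine aminotransferase, differed by 1.09 (limma adjusted p = 0.0192). With slide as a block Jdp2 was still called (0.00406), and Eif4ebp1, Got1, Cars and Gpt2 were not (0.135, 0.118, 0.18 and 0.154).

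Of 18 genes of eIF2, its exchange factor and its kinases, limma called none, with a median of 0.00. Their differences ranged from -0.412 to 1.504, so the median does not describe every gene. In 1 of the 18 every array labelled knockout lay above every wild-type array, and in none did every one lie below. An unadjusted limma p under 0.05 was reached by 2 of them, and by 19.5% of all tested genes. Limma called none of 17 mitochondrial synthetases, with a median of 0.11 and 4 at an unadjusted p under 0.05. Only 3 of the 17 lay below 0, against 54% of all tested genes. In 3 every array labelled knockout lay above every wild-type array, against 8.08% of all tested genes, and in none did every one lie below. Of 14 other cytosolic synthetases only Cars was called, and of 17 other folate genes only Aldh1l1, at -0.57 (limma adjusted p = 0.032). Of 20 genes from the other arms of the endoplasmic reticulum stress response, 1 was called lower, Syvn1, a ubiquitin ligase, at -0.56 (limma adjusted p = 0.00613). The median of these 20 was -0.14, and 14 lay below 0, against 54% of all tested genes. In 5 of them every array labelled knockout lay below every wild-type array, against 10.2% of all tested genes, so a lean downward was not confined to the members. The calls of Aldh1l1 and Syvn1 ended with slide as a block (0.286 and 0.12).

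Among 19 other tested amino acid transporters, 2 were called in each direction. Slc7a7, a light chain that pairs with Slc3a2, differed by 1.77 (limma adjusted p = 0.000206), and Slc25a13, the mitochondrial aspartate and glutamate carrier, by 1.04 (0.00372). Slc7a8, another partner of Slc3a2, differed by -1.01 (limma adjusted p = 0.0013), and Slc6a13 by -0.91 (0.00273). Thus 1 partner of Slc3a2 rose and 1 fell while Slc7a5 did not pass. Of 20 genes of amino acid sensing by mTORC1, Sesn3 differed by 1.27 (limma adjusted p = 0.000209), while Eif4ebp1 and Rraga, at -0.65 (0.0333), were lower. Slide as a block ended the calls of Slc6a13 (0.0571) and Rraga (0.313), as of Eif4ebp1 above, and left that of Sesn3 (0.0118). In that fit 2 of the 19 transporters were again called lower and 2 higher. The lower ones therefore included a transporter, not named here, that was not called lower without the block. Of 14 proliferation genes limma called none, with 9 at an unadjusted p under 0.05 and a median of 0.43, which was 0.60 within slide 1 and 0.04 within slide 2.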

How the data were processed

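Intensity values per spot were deposited as scanner output, which the file headers credit to Agilent Feature Extraction 11.0.1.1 and the submitters' processing notes to 10.7.3.1. The deposited files also give a log10 ratio of red over green, and the deposited value table holds the same ratio as log2, to within 0.001. Median signals were corrected with normexp (offset 50) and normalized within arrays by loess, control spots at weight 0, in limma 3.58.1 under R 4.3.3. Flagged spots (2597 over 7 arrays) were left out first, and spots of a probe were averaged. The sample channel is given after Aquantile scaling. A RefSeq table (GRCm38.p6) matched accessions of 26581 of 39429 probes to a gene, and the rest were tested under their accession. Testing a gene required a red signal well above background on 3 or more arrays and 2 or more values per group, and its brightest probe stood for it. Groups were compared with lmFit and eBayes, adjusted over 25347 genes at a threshold of 0.05. The number of arrays limits the precision.

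The members and lists were chosen with earlier results of these data known. Named in full are members called, the member with the smallest p in each role group, Atf4, Ddit3 and Asns, and from other lists up to 4 called genes each. The promoters to print were to be those of the 6 called members with the smallest p, and the stretches and windows printed were chosen instead after the matches were seen. Alternatives covered background correction, normalization, the deposited ratios, the sample channel, filters, probe choice, flag handling, variance models, slide, replicate number, an Xist minus Ddx3y covariate and arrays left out, and a minimum log2 difference of 0.5 was added after seeing the data. Some cell type markers and a promoter stretch are not reported here. Figures were drawn with matplotlib 3.10.9.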

Additional observations from a re-analysis of the deposited data

How the results depend on the processing

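Over 26 alternatives, 1908 called genes, 14 lower members and 1 higher member became 478, 3 and 0 with slide as a fixed block, the form meant by slide as a block throughout. With slide as a random block the counts were 2122, 15 and 1, at a consensus correlation within slides of -0.135. Without wild-type array 4 and labelled knockout array 3, treated as in doubt for background or scanner quality, the counts were 1098, 12 and 0. Leaving out each array in turn gave 1252 to 1887 called genes, 11 to 13 lower members and 0 to 2 higher members; the lowest gene counts were without labelled knockout array 2 (1252, no higher member) and wild-type array 4 (1265, no higher member), and the second higher member came without wild-type array 1. The scanner's own log ratio and the deposited value table each gave 11 lower and 0 higher members. Median centring in place of loess gave 10 lower and 1 higher, and turned the share of higher calls over all genes from 43.7% to 55.5%. Median centring ended the calls of Nupr1, Atf5, Asns and Cth, the deposited ratios those of Atf4, Atf5, Cth and Shmt1, and the replicate block those of Atf5, Cth and Shmt1. The calls of Trib3, Slc3a2 and Slc38a5 were kept in all 25 alternatives that gave a value for them, and no called member changed sign in any. Replicate numbers are shared by the groups, but nothing says that equal numbers share a litter or day, so they were not taken to pair samples. Deviations from the group mean correlated at 0.0363, 0.24 and 0.0208 for same-numbered samples, and at -0.24 to 0.27 for differently numbered ones. These correlations cannot settle pairing, since deviations within a group depend on each other. With the replicate block, 1081 genes, 12 lower and 0 higher members were called. Signal over background limits Vldlr and the reference channel of Slc38a5.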
